A study of Mus musculus with 8 samples.

Results

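The 40 genes described here encode proteins that package, copy and mark chromatin in dividing cells: high mobility group (HMG) proteins, the machinery that copies DNA methylation, Polycomb repressive complex 2 (PRC2), heterochromatin protein 1 (HP1), histone chaperones, histone H2A variants, remodelling ATPases, histone modifying enzymes and B-type lamins. They were taken by name from a deposited table of 54532 genes, by a list that sets no limit on measured values but was drawn up with earlier results of these data known, and 39 of the 40 had enough counts to be tested. Intestinal epithelial cells came from mice at lactation day 5, 4 WT and 4 Rank-knockout, with 1 library per sample. Rank (gene symbol Tnfrsf11a) is a receptor that signals to NF-κB, and the comparison asked what its loss changes in the lactating gut. Per the study's methods, the Rank-knockout dams carried a floxed Rank allele deleted by Cre under the Villin1 promoter, a promoter active in intestinal epithelium. WT and Rank-knockout dams were littermates mated to wild-type C57BL/6J males. The cells were released from the minced intestine and strained without sorting. The age of these dams, beyond a broad range that the study's methods give for all its mice, and the flox or Cre alleles that the WT littermates carried are not given in the sources used here.

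Intestinal crypts hold the stem cells and the rapidly dividing transit-amplifying cells, whose daughters stop dividing as they move onto the villus. Each round of S phase makes a second copy of the genome, and the new DNA must be wrapped in freshly made histones by chaperones, given back its methyl groups by DNMT1 and UHRF1, and refolded into heterochromatin and anchored at the lamina. Many genes for these steps are transcribed most in cycling cells through E2F factors, and through the DREAM and MuvB complexes that read a CHR element beside CCAAT boxes bound by NF-Y.

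The promoters show which of these letters the genes carry. RefSeq windows of 300 bases (GRCm38.p6, 250 bases before to 50 after a start) were held for 37 of the 40 genes, in 47 windows, and Hdac1, H2afx and Lmnb1 had none. Both strands were searched for E2F (TTTCCCGC, TTTCGCGC, TTTGCCGC, TTTGGCGC), CHR letters (TTTGAA or else TTCGAA), NF-Y letters (CCAAT), SP1 letters (GGGCGG) and E-box letters (CACGTG), none of which contains another. E2F letters stood in 14.9% of the members' windows, against 4.2% of the windows of tested genes and 2.3% of all 32851 windows. NF-Y letters stood in 59.6%, 38.0% and 37.4%, CHR letters in 25.5%, 14.1% and 19.2%, SP1 letters in 76.6%, 63.9% and 35.7%, and E-box letters in 23.4%, 10.5% and 7.2% of the same 3 sets. Median GC was 65.3%, 61.0% and 52.7%, so the members' windows were also the richest in GC. The 4 stretches below are each the 250 bases before an annotated start, 5′ to 3′, with E2F, CHR and NF-Y letters in capitals. They show CHR and NF-Y letters before a start of 3 genes that rose in Rank-knockout, and all 3 kinds before that of Suz12, which did not pass the test. All 4 hold CHR letters, which stood in only 25.5% of the members' windows, so they do not stand for the members. Dnmt1 has 3 windows in the table, of which window 1 is printed, the only one with CHR letters. Window 3, not printed because annotated exons overlap it, holds 2 matches to E2F letters and 3 to NF-Y letters. GC was 51.3% in window 1 and 69.7% in window 3. Which of the Dnmt1 starts these cells use was not tested.
Dnmt1, chr9:20959889-20960138, - strand: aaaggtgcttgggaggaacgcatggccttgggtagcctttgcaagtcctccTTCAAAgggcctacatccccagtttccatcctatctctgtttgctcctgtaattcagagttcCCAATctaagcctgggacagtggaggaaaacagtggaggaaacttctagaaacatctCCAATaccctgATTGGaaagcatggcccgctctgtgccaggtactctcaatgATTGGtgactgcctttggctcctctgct
Hmgb2, chr8:57511593-57511842, + strand: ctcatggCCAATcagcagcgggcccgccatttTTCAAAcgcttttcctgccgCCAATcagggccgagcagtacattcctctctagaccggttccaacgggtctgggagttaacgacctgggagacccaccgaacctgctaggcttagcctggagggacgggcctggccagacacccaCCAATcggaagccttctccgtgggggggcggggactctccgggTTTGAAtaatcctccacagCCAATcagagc
Nasp, chr4:116627952-116628201, - strand: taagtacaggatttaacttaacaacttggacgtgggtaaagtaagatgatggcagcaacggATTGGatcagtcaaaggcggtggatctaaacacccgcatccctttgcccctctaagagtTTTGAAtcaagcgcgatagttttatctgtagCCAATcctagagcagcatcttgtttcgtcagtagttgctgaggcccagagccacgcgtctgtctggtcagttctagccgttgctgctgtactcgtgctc
Suz12, chr11:79992856-79993105, + strand: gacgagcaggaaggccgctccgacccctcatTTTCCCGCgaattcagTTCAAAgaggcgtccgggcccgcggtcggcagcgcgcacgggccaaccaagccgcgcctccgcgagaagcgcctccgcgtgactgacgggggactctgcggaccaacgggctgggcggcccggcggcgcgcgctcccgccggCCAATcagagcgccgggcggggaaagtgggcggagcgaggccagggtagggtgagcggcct
A match is only a description of the letters. Among windows of members that rose, 17.1% held E2F letters, 22.9% CHR and 57.1% NF-Y, against 8.3%, 33.3% and 66.7% of the 12 windows of the other members, 1 of them that of Hmgn2, which was not tested.

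Library totals ran from 1530781 to 4335653 counts, with 3 of the 4 WT libraries at the low end. Levels are given as CPM, counts scaled to a common library size, and because the assay reads about 1 tag at the 3′ end of each transcript, CPM of different genes can be set side by side without dividing by length. A single count was worth 0.212 to 0.685 CPM. The sources used here name no molecular identifiers, so counts may include PCR copies. Which exons of Rank were deleted is not given in them either, so 3′ tags are no check of the deletion. Tnfrsf11a was at 60.7 ± 17.7 CPM (SD, n = 4 here and for every ± below) in WT and 38.0 ± 8.64 in Rank-knockout, with overlap, a log2 fold change of -0.67 (SE 0.22, adjusted p = 0.0321, edgeR).

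Most chromatin members were higher in Rank-knockout. By edgeR's quasi-likelihood test with Benjamini-Hochberg adjustment over 9855 genes, 28 of the 39 tested members rose, 71.8%, against 15.8% of all tested genes that were higher in Rank-knockout. No member was lower, against 14.6% of all genes lower, and DESeq2 and limma-voom gave 0 too, as did an unadjusted p under 0.05. Taking both directions, 30.4% of all genes passed. The counts for single roles given below stand against the same shares of all genes. All 39 fold changes were above 0, from 0.12 to 2.49 on the log2 scale, with a median of 0.85 beside 0.02 for all tested genes. The genotypes' CPM did not overlap for 18 members, all of which passed the test, while 14.4% of all genes were higher without overlap. The members with the smallest p were Hdac2 (ENSMUSG00000019777, chr10:36974544-37001889), Anp32e (ENSMUSG00000015749, chr3:95929246-95947390) and Rbbp7 (ENSMUSG00000031353, chrX:162760402-162779092), with positions from GENCODE M21 on GRCm38. Dividing by raw library totals instead moved the median of all genes up by 0.199 and the share of passing genes that were higher from 51.95% to 74.92% (68.05% with the 50 most abundant genes left out of the library size), and the count of members that rose to 35.

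**Figure D1:**
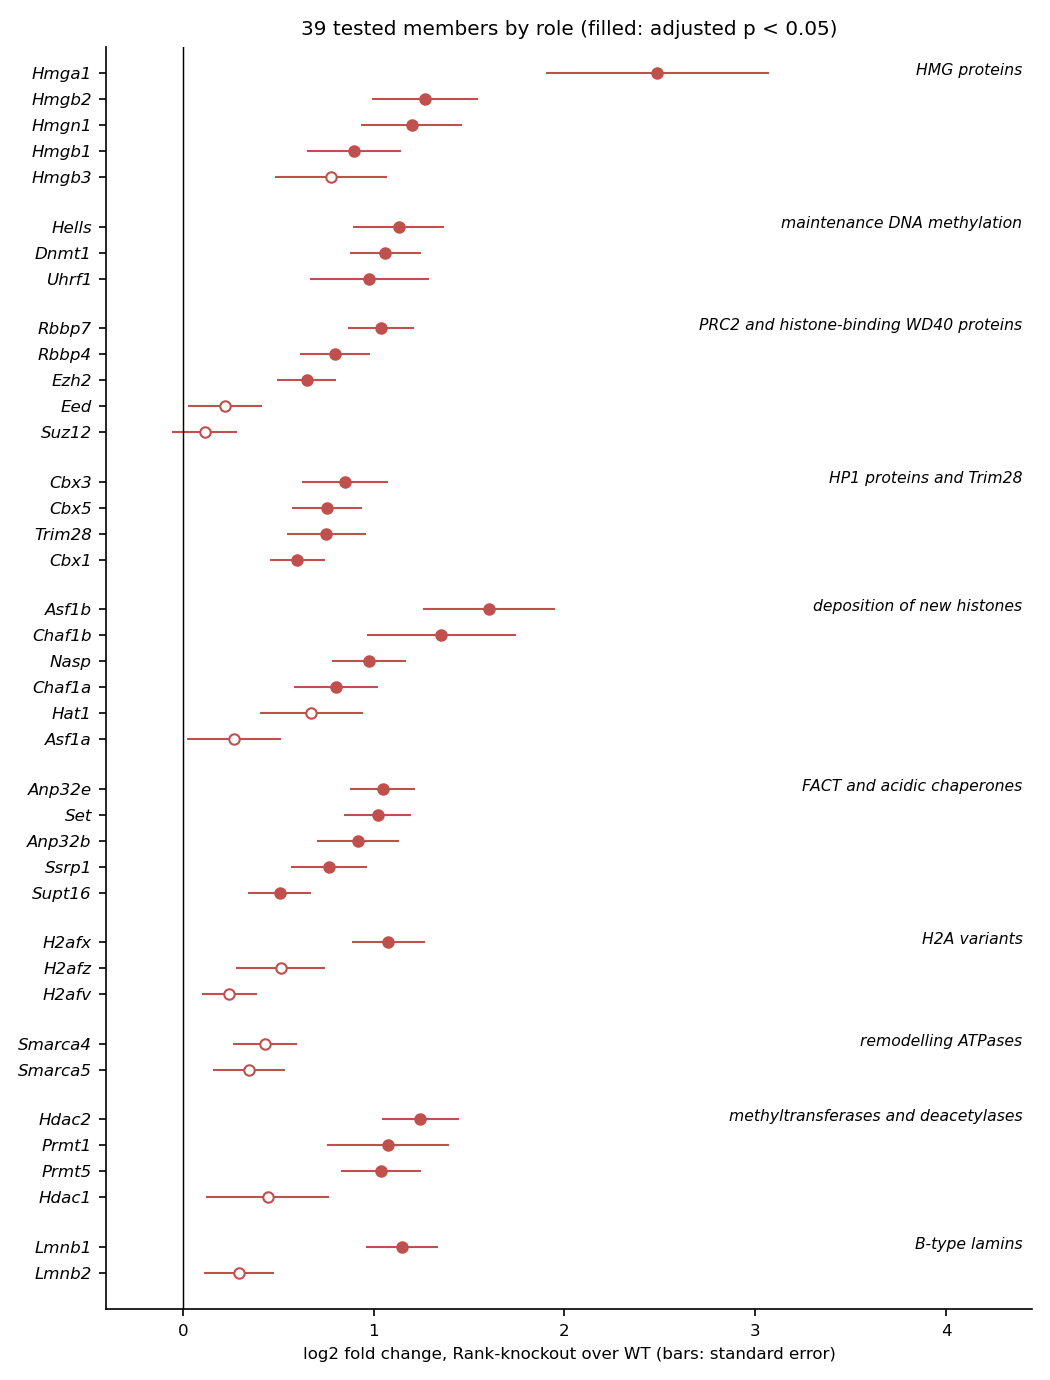
Log2 fold change (x axis, Rank-knockout over WT) of the 39 tested chromatin members, grouped by role, with bars for the standard error and filled points for adjusted p under 0.05. All points lie right of 0, with Hmga1 the farthest at 2.49 and Suz12 the nearest at 0.12.

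The rise moved together with markers of dividing cells and against markers of the mature villus. Of 28 listed replication and cell cycle genes, 25 were tested and all 25 rose (median log2 fold change 1.15), and 14 of 15 villus enterocyte genes fell (median -1.17). In bulk samples, fewer cells of a type and less RNA per cell cannot be told apart. Summed over the 40 members, WT libraries 1 to 4 held 3034, 3412, 3043 and 2435 CPM and Rank-knockout libraries 5960, 4820, 5548 and 4024, without overlap. The cell cycle markers summed to 1182, 1340, 1231 and 834 CPM in WT and to 3374, 2404, 2514 and 2100 in Rank-knockout. Within each genotype the highest and lowest libraries were the same for both sums. Chromatin members amounted to 2.47 to 2.92 times the cell cycle sum in WT and 1.77 to 2.21 times in Rank-knockout, so the chromatin sum was the less changed of the pair. The part that cell makeup played in the members' rise was not tested.

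**Figure D2:**
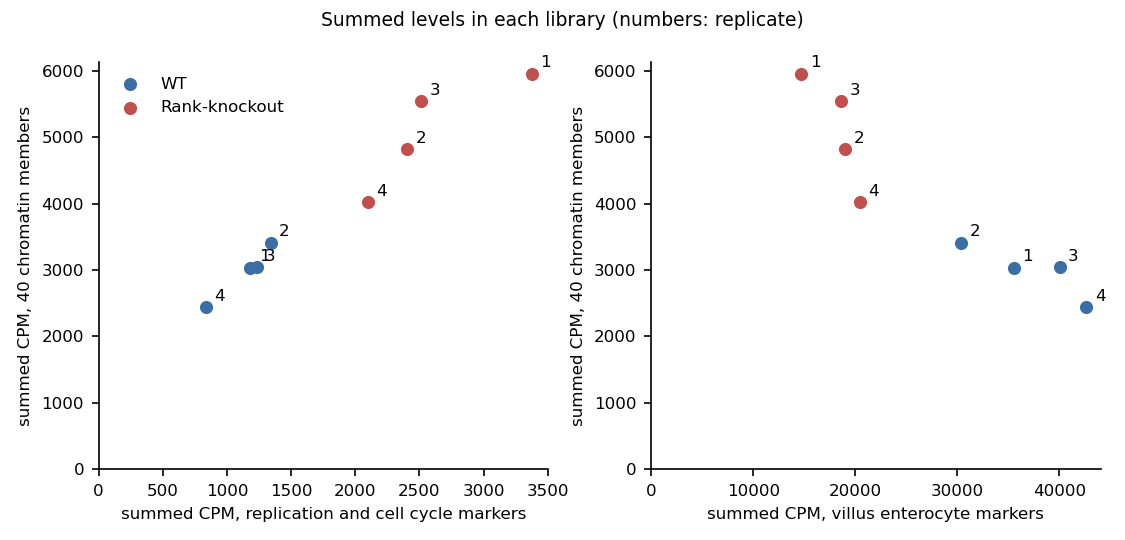
Summed CPM of the 40 chromatin members (y axis) in each of the 8 libraries against the summed CPM of replication and cell cycle markers (left) and villus enterocyte markers (right), with replicate numbers beside the points. The 4 Rank-knockout libraries sit at 4024 CPM or above and the 4 WT libraries at 3412 or below, with Rank-knockout at 2100 or above on the cell cycle axis and at 20460 or below on the villus axis.

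Other cells in the preparation gave little signal. The 12 T cell markers summed to 196 to 301 CPM in WT and 134 to 216 in Rank-knockout, most of it Gzma, and the adjusted p of the 8 tested ran from 0.0718 to 0.978. The 8 B and plasma cell markers summed to 32.1 to 69.9 CPM in WT and 4.05 to 26.4 in Rank-knockout, with Cd79a at 0 in all libraries and Igkc, an antibody light chain, lower in Rank-knockout (log2 fold change -1.90, adjusted p = 0.00908). The 7 macrophage and dendritic markers stayed at 23.3 CPM or less and the 10 stromal, muscle and endothelial markers at 19.5 or less in each library, with Adgre1 and Cdh5 at 0 in all libraries. The 7 epithelial markers summed to far more, 11190 to 12220 CPM in WT and 8565 to 10680 in Rank-knockout, so that all Rank-knockout libraries were below all WT libraries. Of these, Epcam (log2 fold change -0.45, adjusted p = 0.0241), Vil1 (-0.80) and Krt20 (-0.96) fell, Krt18 rose (0.41), and Cdh1, Krt8 and Cldn7 did not pass. None of the summed levels of these non-epithelial lists had all Rank-knockout libraries above WT. Their part in the members' fold changes was not tested.

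HMG proteins bend and loosen DNA without reading a specific sequence. Of the 6 genes, 4 rose. Hmgb2, a DNA-bending protein of proliferating cells, was at 17.1, 8.87, 30.0 and 16.6 CPM in WT libraries 1 to 4 and at 46.1, 34.5, 40.9 and 44.0 in Rank-knockout. All 4 Rank-knockout libraries stood above the highest WT library, and the log2 fold change was 1.27 (SE 0.28, adjusted p = 0.00353). Hmgn1, which binds nucleosomes and competes with linker histone, was at 134, 143, 109 and 57.9 CPM in WT and at 352, 232, 264 and 181 in Rank-knockout. The groups did not overlap, and the change was 1.20 (SE 0.27, adjusted p = 0.00578). Hmga1, an AT-hook protein abundant in crypt stem and progenitor cells, had the largest change of any member and was picked out for it: 5, 0, 3 and 6 counts in WT and 72, 22, 17 and 36 in Rank-knockout, or 2.37 ± 1.78 and 10.2 ± 3.50 CPM. The log2 fold change was 2.49 (SE 0.58, adjusted p = 0.006), and 1.70 without WT replicate 2, the library with 0 counts. Hmgb1, an abundant HMG protein of most tissues, changed by 0.90 (SE 0.25, adjusted p = 0.0123, or 0.0514 with all libraries thinned to the smallest total), and Hmgb3 by 0.77 (SE 0.29, adjusted p = 0.0567, or 0.043 without Rank-knockout replicate 2). Hmgn2 had 1, 0, 0 and 0 counts in WT and 1, 0, 0 and 1 in Rank-knockout and could not be tested.

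Several HMG values are uncertain because the genes have near-identical copies. Of the 50-base stretches in the last 300 bases of their annotated transcripts, the length of a read, 75.3% were shared with a copy elsewhere in the genome for Hmga1 (Hmga1b), 57.9% for Hmgn2, 45.3% for Hmgb1 and 29.2% for Hmgn1, against 0% for Hmgb2. H2afz, an H2A variant, stood at 60.2%, and 45.4% were shared with Tmcc1, a protein-coding gene with 3015 counts over all libraries. Reads from such stretches can be dropped or given to the other gene, so the levels listed for these genes may miss transcripts. Their part in the fold changes was not tested.

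The 3 genes of maintenance DNA methylation all rose. DNMT1 copies methyl marks onto the new strand, UHRF1 brings it to hemimethylated sites, and HELLS, a remodeller, opens nucleosomal DNA for it. Dnmt1 was at 105, 120.4, 111 and 95.2 CPM in WT and at 319.9, 209.8, 216 and 157 in Rank-knockout. The lowest Rank-knockout library, replicate 4, was still above every WT library, and the log2 fold change was 1.06 (SE 0.19, adjusted p = 0.000945). Hells was at 37.7, 27.9, 38.9 and 24.6 CPM in WT and at 93.2, 61.9, 82.7 and 42.2 in Rank-knockout. The groups did not overlap, and the change was 1.13 (SE 0.24, adjusted p = 0.00286). Uhrf1 rose by 0.98 (SE 0.31, adjusted p = 0.0278), with 11.0 to 17.2 CPM in WT and 12.9 to 38.2 in Rank-knockout. Its call did not hold when WT replicate 1, 3 or 4 was left out, nor when Rank-knockout replicate 1 or 3 was (adjusted p up to 0.104), nor by limma-voom (adjusted p = 0.104) or after thinning to the smallest total (adjusted p = 0.078).

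PRC2 places the repressive methyl mark on lysine 27 of histone H3. Of its core subunits, Ezh2 passed the test and Suz12 and Eed did not, and the difference between them was not tested. Ezh2, the catalytic subunit of proliferating cells, was at 56.2, 66.6, 62.8 and 59.2 CPM in WT and at 101, 99.8, 111 and 75.7 in Rank-knockout. The groups did not overlap, and the change was 0.65 (SE 0.15, adjusted p = 0.00537). Of the partners that the enzyme needs, Suz12 stood at 41.2 ± 5.61 CPM in WT and 44.6 ± 6.10 in Rank-knockout (0.12, SE 0.17, adjusted p = 0.645) and Eed, which reads the mark, at 24.1 ± 4.90 and 27.6 ± 2.43 (0.22, SE 0.19, adjusted p = 0.41). The histone-binding WD40 proteins RBBP4 and RBBP7 also serve chromatin assembly factor 1 (CAF-1) and deacetylase complexes. Rbbp7 was at 47.3, 40.3, 42.3 and 36.6 CPM in WT and at 104, 70.5, 94.9 and 71.7 in Rank-knockout, a rise of 1.04 (SE 0.17, adjusted p = 0.000615). Rbbp4 was at 80.8, 46.4, 74.4 and 61.9 CPM in WT and at 130.1, 112, 121 and 88.8 in Rank-knockout, a rise of 0.80 (SE 0.18, adjusted p = 0.00448). Neither overlapped between genotypes.

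HP1 proteins bind methylated lysine 9 of histone H3, and TRIM28 is the corepressor that recruits them. All 4 genes rose, by 0.60 to 0.85. Cbx1 (HP1 beta) was the steadiest in WT, at 258, 262, 266 and 264 CPM, and stood at 494, 354, 407 and 335 in Rank-knockout. The lowest Rank-knockout library was above all WT libraries, and the change was 0.60 (SE 0.15, adjusted p = 0.006). Cbx5 (HP1 alpha) was at 130.2, 150.01, 95.6 and 104 CPM in WT and at 258, 183, 226 and 149 in Rank-knockout. Here Rank-knockout replicate 4 fell just below WT replicate 2, and the change was 0.76 (SE 0.19, adjusted p = 0.00669). Cbx3 (HP1 gamma) rose by 0.85 (SE 0.22, adjusted p = 0.01) and Trim28 by 0.75 (SE 0.21, adjusted p = 0.0128), the latter not without WT replicate 4 (adjusted p = 0.0528).

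New histones are acetylated by HAT1, carried by NASP and ASF1 and laid on fresh DNA by CAF-1, whose large subunits are CHAF1A and CHAF1B. Of these 6 genes 4 rose. Nasp was at 119, 134, 115 and 85.2 CPM in WT and at 287, 195, 259 and 153 in Rank-knockout, without overlap, a rise of 0.98 (SE 0.20, adjusted p = 0.00213). Asf1b, the ASF1 form of dividing cells, had 10, 17, 5 and 2 counts in WT and 72, 37, 23 and 36 in Rank-knockout, or 3.98 ± 2.29 and 12.2 ± 2.78 CPM. It rose by 1.604 (SE 0.35, adjusted p = 0.00304), with every Rank-knockout library above every WT library. Its sister Asf1a, which works through the whole cell cycle, stood at 12.8 ± 3.51 and 16.1 ± 3.27 CPM (0.27, SE 0.25, adjusted p = 0.43). Chaf1b changed by 1.36 (SE 0.39, adjusted p = 0.0163, or by 1.97 without WT replicate 2) and Chaf1a by 0.80 (SE 0.22, adjusted p = 0.0118). Leaving out replicate 3 of either genotype took Chaf1b above the threshold (adjusted p up to 0.0518), as did thinning (adjusted p = 0.0885), and leaving out Rank-knockout replicate 1 did so for Chaf1a (adjusted p = 0.0524). Hat1 stood at 11.99 ± 4.099 CPM in WT and 18.3 ± 4.71 in Rank-knockout (0.67, SE 0.27, adjusted p = 0.0681), and passed once WT replicate 3 (adjusted p = 0.0261) or Rank-knockout replicate 4 was left out.

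All 5 genes of FACT and the acidic chaperones rose. SSRP1 and SUPT16 form FACT, which takes nucleosomes apart ahead of polymerases, ANP32E strips H2A.Z from nucleosomes, and SET and ANP32B bind histones through acidic tails. Anp32e was at 85.6, 96.5, 106 and 64.6 CPM in WT and at 225, 164, 185 and 156 in Rank-knockout. Set was at 65.1, 46.1, 66.2 and 45.3 CPM in WT and at 137, 98.7, 113 and 98.6 in Rank-knockout. Neither gene overlapped between genotypes, with rises of 1.05 (SE 0.17, adjusted p = 0.000564) for Anp32e and 1.02 (SE 0.18, adjusted p = 0.00075) for Set. Anp32b rose by 0.92 (SE 0.22, adjusted p = 0.00598) and Ssrp1 by 0.77 (SE 0.20, adjusted p = 0.00957). Supt16 had the smallest passing change, 0.51 (SE 0.17, adjusted p = 0.0299), and it stayed under the threshold only when the library left out was replicate 2 of WT or replicate 4 of Rank-knockout (otherwise adjusted p up to 0.103). By limma-voom its adjusted p was 0.0502.

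Among the 3 H2A variants that are members, only H2afx, which is phosphorylated at DNA breaks, passed. It was at 43.2, 39.5, 54.0 and 31.3 CPM in WT and at 80.0, 97.6, 109 and 68.0 in Rank-knockout, without overlap, a rise of 1.08 (SE 0.19, adjusted p = 0.000945). H2afv, which encodes 1 of the H2A.Z proteins, was listed at 514 ± 39.9 CPM in WT and 609.9 ± 86.4 in Rank-knockout (0.24, SE 0.14, adjusted p = 0.212). H2afz, the other H2A.Z gene, was listed at 14.4 ± 4.19 and 21.6 ± 3.09 CPM (0.51, SE 0.23, adjusted p = 0.103, or 0.0269 without WT replicate 2). The levels of these genes cannot be ranked, since much of the H2afz 3′ end also occurs in other genes.

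The remodelling ATPases did not pass. Smarca4, the motor of BAF complexes, was at 152 ± 33.1 CPM in WT and 206 ± 32.7 in Rank-knockout (0.43, SE 0.17, adjusted p = 0.062), and Smarca5, the motor of ISWI complexes, at 35.6 ± 4.91 and 44.8 ± 9.07 (0.35, SE 0.19, adjusted p = 0.171). Smarca4 did pass once WT replicate 2 (adjusted p = 0.00951) or Rank-knockout replicate 4 was left out.

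Among the modifying enzymes, Hdac2, a class I deacetylase, was at 15.8, 19.0, 24.6 and 20.6 CPM in WT and at 52.6, 49.5, 52.6 and 34.5 in Rank-knockout. The groups were well apart, with a rise of 1.24 (SE 0.20, adjusted p = 0.000562). Prmt5, which makes symmetric dimethylarginine, was at 55.5, 75.8, 49.9 and 35.3 CPM in WT and at 128, 117, 127 and 82.2 in Rank-knockout. It rose by 1.04 (SE 0.21, adjusted p = 0.0022), with no overlap. Prmt1, the main asymmetric arginine methyltransferase, rose by 1.07 (SE 0.32, adjusted p = 0.0293), but WT ran from 85.2 to 265 CPM, and 5 of the 8 fits with a library left out did not pass (WT 1 and 3, Rank-knockout 1, 2 and 3, adjusted p up to 0.0925). Hdac1, on 8 to 34 counts per library, stood at 5.19 ± 0.991 and 6.69 ± 1.76 CPM (0.44, SE 0.32, adjusted p = 0.316).

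B-type lamins line the inner nuclear membrane and stay bound to it. Lmnb1 was at 150.02, 187, 177 and 97.8 CPM in WT and at 378, 339.6, 382 and 263 in Rank-knockout. Every Rank-knockout library was above every WT library, and the rise was 1.15 (SE 0.19, adjusted p = 0.000615). Lmnb2 stood at 43.4 ± 7.15 CPM in WT and 53.0 ± 10.4 in Rank-knockout (0.29, SE 0.18, adjusted p = 0.232).

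**Figure D3:**
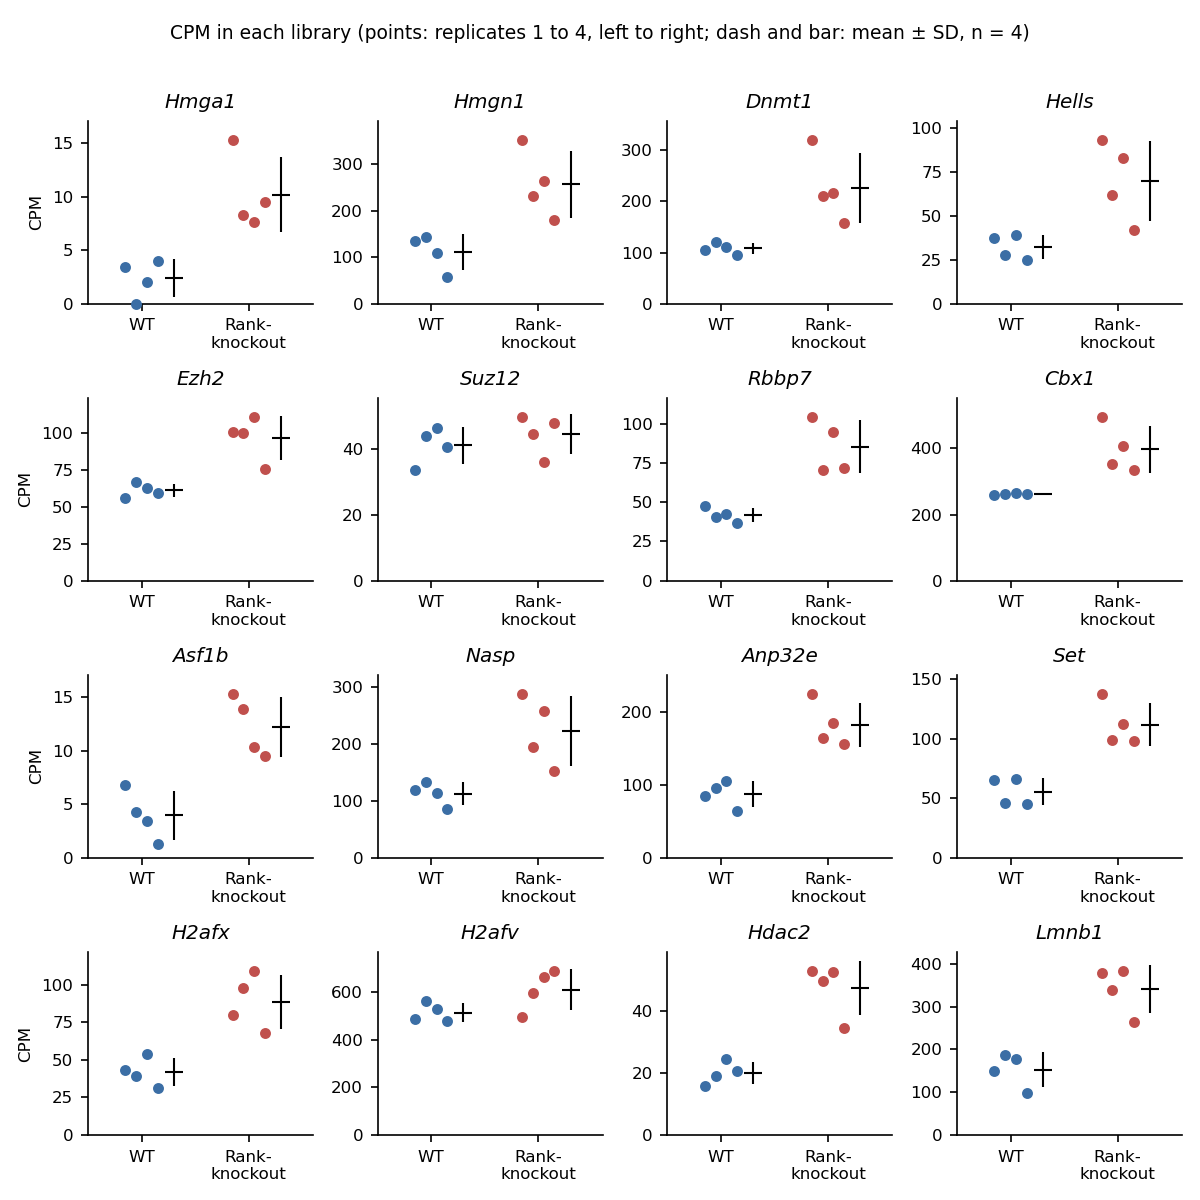
CPM of 16 chromatin members in each library (y axis from 0, points are replicates 1 to 4 from left to right, dash and bar are mean ± SD with n = 4). For 14 of the 16 genes all Rank-knockout points lie above all WT points, while Suz12 and H2afv overlap. These 16 do not stand for all members. Of the 39 tested members 18 did not overlap, while 14.4% of all tested genes were higher without overlap.

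The libraries differed within a genotype in the same way for most members. Of the 39 tested members, 22 were lowest of all 8 libraries in WT replicate 4, 26 were highest in Rank-knockout replicate 1, and 32 had their lowest Rank-knockout value in replicate 4. The share of all tested genes with these patterns was not counted, so they are not known to be particular to the members. Relative to each gene's mean log2 level, the median member stood at -0.33, -0.23, -0.30 and -0.64 in WT libraries 1 to 4 and at 0.76, 0.38, 0.56 and 0.06 in Rank-knockout. WT replicate 4 and Rank-knockout replicate 4 also held the lowest cell cycle sums of their genotypes.

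Related genes with different uses were then compared as log2 ratios of their counts within a library, which cancel library size. Of 17 pairs listed, 14 had both genes tested. By an exact two-sided permutation test over the 70 assignments of libraries to genotypes, 0 of 14 ratios passed after Benjamini-Hochberg adjustment and 3 had an unadjusted p under 0.05. With 4 against 4 libraries the smallest p possible is 0.0286, and all 3 reached it without overlap (adjusted p = 0.133). A few pairs at that smallest p cannot pass after adjustment over 14 pairs. The count of 0 therefore does not show that the ratios were unchanged. The Ezh2 to Ezh1 ratio was -0.78, -0.75, -0.53 and -0.32 in WT and 0.71, 0.67, 0.70 and 0.10 in Rank-knockout, a difference of 1.14 (SE 0.18). EZH1 is the PRC2 enzyme of resting cells, and Ezh1 itself fell, by 0.52 on the log2 scale (SE 0.15, adjusted p = 0.0184, edgeR), from 93.5 ± 15.9 to 65.7 ± 4.31 CPM. Ezh1 was thus the more abundant transcript in all 4 WT libraries and Ezh2 in all 4 Rank-knockout libraries.

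The Dnmt1 to Dnmt3a ratio was 0.59, 0.75, 0.88 and 0.49 in WT and 2.21, 1.64, 1.83 and 1.51 in Rank-knockout, a difference of 1.121 (SE 0.18). DNMT3A methylates new sites, and Dnmt3a was at 67.3 ± 5.04 CPM in WT and 63.0 ± 6.35 in Rank-knockout (-0.10, SE 0.15, adjusted p = 0.645, edgeR). The Lmnb1 to Lmna ratio was 0.93, 0.99, 0.76 and 0.12 in WT and 1.88, 1.77, 2.01 and 1.23 in Rank-knockout, a difference of 1.02 (SE 0.26). Lmna, which encodes the lamins of differentiated nuclei, was at 91.8 ± 10.7 and 102 ± 7.39 CPM (0.16, SE 0.14, adjusted p = 0.421, edgeR). The largest difference, 1.37 for Asf1b to Asf1a (SE 0.46), overlapped in WT replicate 1 (exact p = 0.0857, adjusted p = 0.24), as did Hdac1 to Hdac2 in Rank-knockout replicate 4 (-0.91, SE 0.36, same p). The other 9 ratios differed by -0.22 to 0.56 with adjusted p from 0.267 to 0.657.

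**Figure D4:**
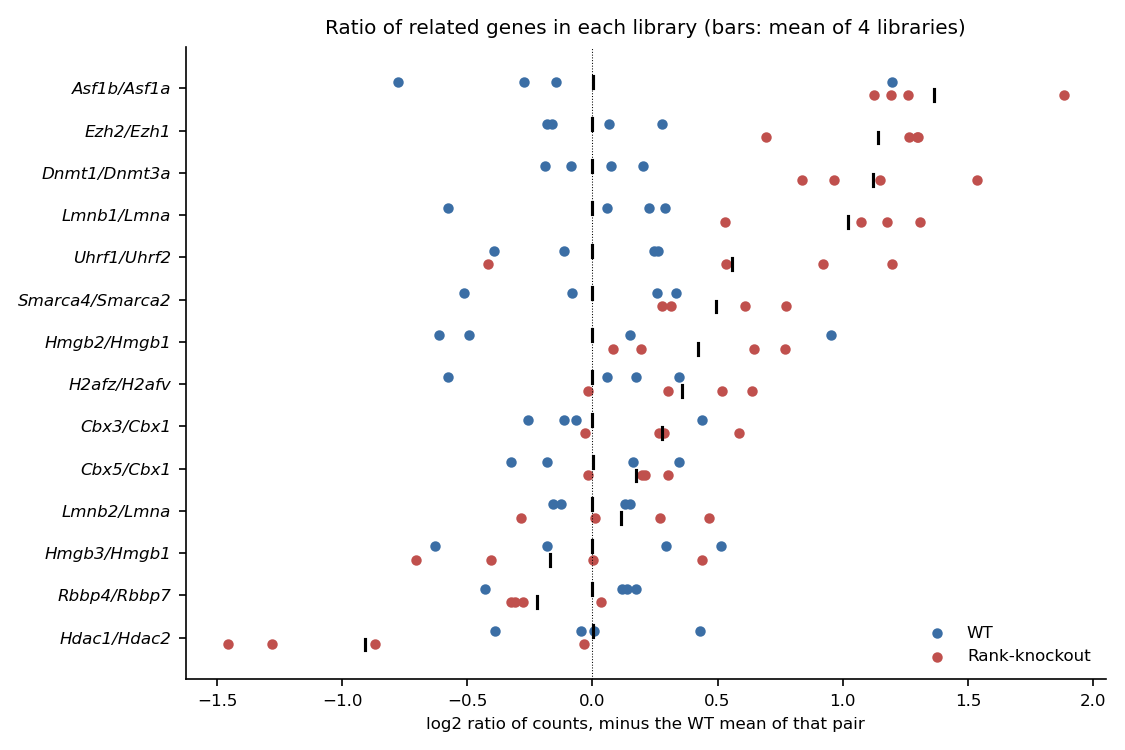
Log2 ratio of counts of 14 gene pairs in each library (x axis, minus the WT mean of the pair), WT and Rank-knockout in separate colours, with black bars for the mean of 4 libraries. Ezh2 to Ezh1, Dnmt1 to Dnmt3a and Lmnb1 to Lmna are the pairs whose points do not overlap between genotypes.

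A list of 155 other chromatin genes of the same pathways held 143 tested, of which 29 rose (20.3%, against 15.8% of all tested genes) and 5 fell (against 14.6% of all tested genes), with a median log2 fold change of 0.18. The counts of its shorter lists stand against the same shares of all genes. The lists of other Polycomb genes (1 of 19 rose, 1 fell, median 0.01) and other heterochromatin genes (3 of 12 rose, 1 fell, median 0.03) sat near the median of all genes, while other lamina genes (4 of 10 rose, median 0.36), histone variants (3 of 6, 0.43) and histone chaperones (5 of 17, 0.37) sat higher. Other DNA methylation genes had 3 of 12 rise (0.20), HMG genes 1 of 7 (0.32), remodelling subunits 5 of 27 with 1 lower (0.10), and deacetylase complex and histone modifying genes 4 of 33 with 2 lower (0.14).

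From each of these lists, at most 2 genes that passed, those with the smallest p, are named here, so that they do not stand for the lists as a whole. All 5 genes that fell are named in addition. Cdca7l (1.09, SE 0.25) and Cdca7 (1.28, SE 0.34), the latter a partner of HELLS, rose with Hells. Suv39h2 (1.73, SE 0.34) and Suv39h1 (1.15, SE 0.29) encode the enzymes that write the mark HP1 reads. Wdr77, the partner of PRMT5, rose by 1.14 (SE 0.22). Mms22l (0.96, SE 0.19), which acts at stalled forks, and Npm1 (1.04, SE 0.23) rose among the chaperones. Tmpo (1.0004, SE 0.16) and Lbr (0.97, SE 0.18), which tie lamins and HP1 to the nuclear envelope, rose with Lmnb1. Cenpa, the centromeric histone, rose by 1.08 (SE 0.24) and H2afy, which encodes macroH2A, by 0.60 (SE 0.15). Ruvbl2 (2.06, SE 0.35) and Actl6a (0.87, SE 0.17), shared ATPase and actin-like subunits of remodellers, and Hmgn5 (0.61, SE 0.17) and Cbx7 (0.78, SE 0.25) rose as well, with edgeR adjusted p from 0.000604 to 0.0285 over all these genes. All 5 genes that fell, some of them named after their values were seen, were Hdac5 (-1.20, SE 0.29), Chd3 (-0.59, SE 0.18), Ezh1, Sirt7 (-0.50, SE 0.15) and Kmt5b (-0.49, SE 0.15), a deacetylase, a remodeller, a PRC2 enzyme, a sirtuin and a histone H4 methyltransferase.

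**Figure D5:**
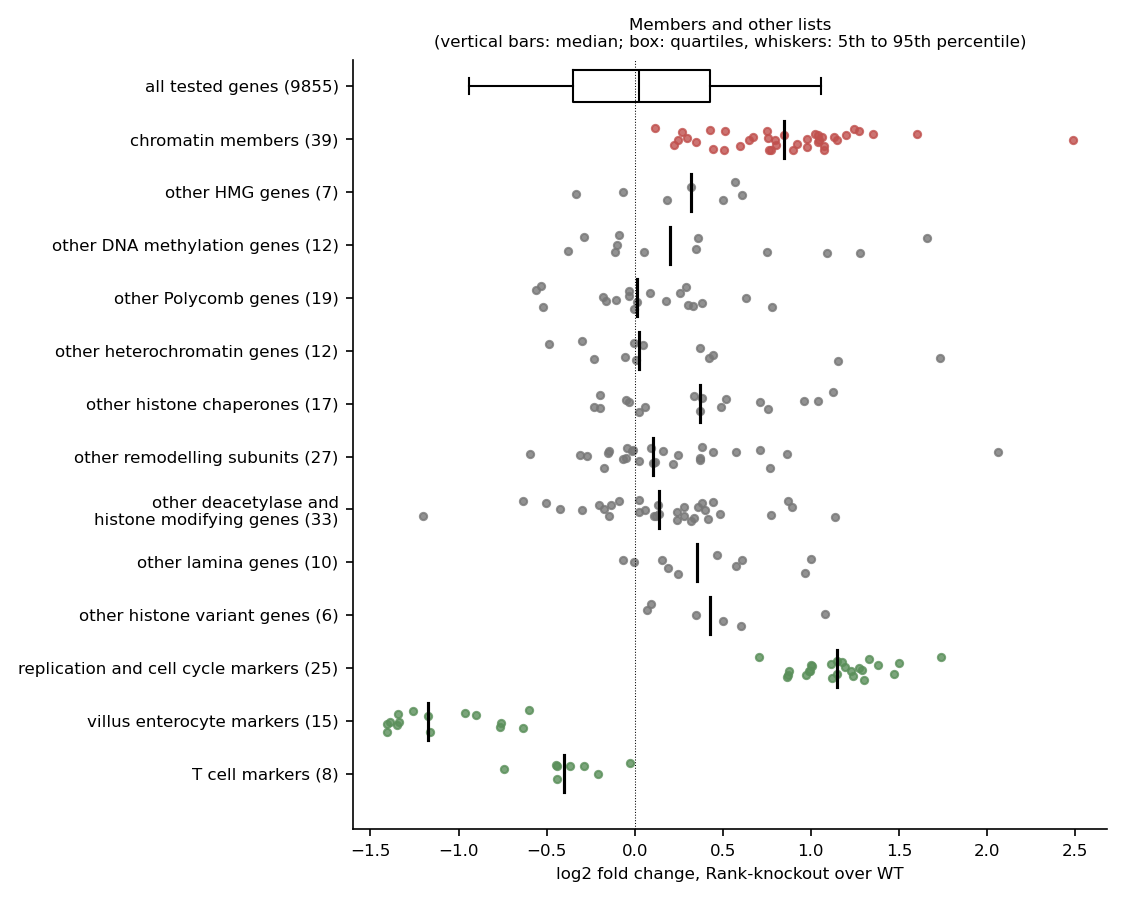
Log2 fold change (x axis, Rank-knockout over WT) of each tested gene in the chromatin members, the lists of other chromatin genes and 3 marker lists, with vertical bars for medians and the box for all 9855 genes (quartiles, whiskers from the 5th to the 95th percentile). The members have a median of 0.85, between all genes at 0.02 and the replication and cell cycle markers at 1.15.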

How the data were processed

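Intestinal epithelial RNA of 4 WT and 4 Rank-knockout mice at lactation day 5 was read by 3′ tag sequencing (QuantSeq). The authors trimmed reads (BBDuk), removed ribosomal, mitochondrial and adapter reads (bowtie2), aligned to GRCm38 (STAR) and assigned sense-strand reads to genes (featureCounts). The deposited values are these raw counts, not normalized. The test was that of edgeR 4.0.16 under R 4.3.3 (filterByExpr, TMM, quasi-likelihood F-test with robust fitting, genotype as the only term), with Benjamini-Hochberg adjustment over 9855 genes and a threshold of 0.05. Fold changes are Rank-knockout minus WT. Pair ratios used counts plus 0.5 and SciPy 1.17.1. Symbols came from GENCODE M21 (54495 identifiers found) and promoters from RefSeq. Scripts were tested on simulated data.

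The members and lists were chosen with earlier results of these data known. Values are given for all 40 members, and by library for the members of each role that passed with the smallest p. These are printed as CPM because library totals differ, and as raw counts for Hmga1, Hmgn2 and Asf1b, which had few. The labels name each sample as a mouse, and p-values set the difference between genotypes against the spread between these samples. Alternatives were RLE scaling, library totals, size factors without the 50 most abundant genes, no filter, a mean CPM of 5, DESeq2 1.42.0, limma-voom 3.58.1, thinning to 1530781 counts, the replicate number as a block and leaving out libraries.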

Additional observations from a re-analysis of the deposited data

Results flagged for a closer look

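Of 108 sets of 4 values examined (CPM of each tested member, each pair ratio and the library totals, per genotype), 6 had a library far from the other 3, where chance at a rate of 1 in 20 gives 5.4. WT replicate 2 had a total of 4335653 counts, against 1530781 to 1616024 in the other WT libraries. Hmgb1 was at 13.0 CPM in WT replicate 1, against 7.35 to 8.20. Hat1 was at 25.3 CPM in Rank-knockout replicate 1, against 15.03 to 16.6. The log2 ratio of Ezh2 to Ezh1 was 0.099 in Rank-knockout replicate 4, against 0.67 to 0.71. The log2 ratio of Rbbp4 to Rbbp7 was 0.20 in WT replicate 2, against 0.75 to 0.81, and 0.67 in Rank-knockout replicate 2, against 0.31 to 0.36.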

How the results depend on the processing

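Of 28 members that rose, 18 did so under all 18 alternatives, and of 11 that did not pass, 7 passed under at least 1. No member's fold change turned negative. Members that rose numbered 24 to 30 with 1 library left out, 28 with DESeq2, 27 with limma-voom (26 of the 28) and 26 after thinning (25 of the 28). Leaving out both WT replicate 4 and Rank-knockout replicate 1, chosen after seeing the data as the lowest and highest libraries, gave 18 members, with 668 genes higher and 809 lower in all. The 10 calls lost there were those of Hmgb1, Uhrf1, Cbx3, Cbx5, Trim28, Chaf1a, Chaf1b, Ssrp1, Supt16 and Prmt1. Over all genes, library totals gave 2566 higher and 859 lower against 1555 and 1438, and leaving out 1 library gave 1020 to 1723 higher and 1097 to 1564 lower. The lowest of the higher counts, 1020, came without WT replicate 4. Samples that shared a replicate number did not all deviate together (correlations 0.05, 0.15, -0.14 and 0.32 for replicates 1 to 4, with 2 of 4 closest to their own number). With a replicate block 30 members rose, and 1708 genes were higher and 1602 lower. For pair ratios a block allows no p below 0.125, and leaving out a library none below 0.0571. The difference in Hmgb3 to Hmgb1, -0.17, ran from -0.3773 to 0.0115 with 1 library left out and turned positive in 2 of those fits, 0.00297 when WT replicate 4 was dropped and 0.0115 when Rank-knockout replicate 2 was, and that in Lmnb2 to Lmna, 0.12, ran from -0.00119, without Rank-knockout replicate 1, to 0.2483. Hmga1, Hmgb1, Hmgn2, Asf1b, Chaf1b and Hdac1 had under 10 CPM in WT, on few counts.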
